A study of Homo sapiens with 12 samples.

Results

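Aminoacyl-tRNA synthetases, the enzymes that charge transfer RNA, were followed as a family of 38 genes among the 60612 genes quantified in LX2, an established human hepatic stellate cell line. Members were the genes with a protein-coding transcript whose symbol is the letter of an amino acid followed by ARS, with or without a number from 1 to 3, together with EPRS1, FARSA and FARSB. Symbols ending in 2 were taken as the mitochondrial class (17 genes), GARS1 and KARS1 as serving both compartments (2 genes), and the rest as the cytosolic class (19 genes). All 38 were above the filter on low counts, as were 21328 genes in all. The libraries, 12 in number, came from wild-type cells deprived of serum for 16 h, which began 24 h after seeding, and fell into 3 groups of 4. In the group STINGX with TGFb, cells received 10 µM of the code-named compound STINGX for 3 h ahead of TGFb. The TGFb group received only the cytokine, at 5 ng/ml for 16 h in both groups, and the control group was untreated. No libraries of STINGX without TGFb were analysed, so the compound was measured only in stimulated cells.

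A synthetase attaches an amino acid to the transfer RNA that carries it to the ribosome. Mitochondria translate their own messages with a separate set of these enzymes, which is encoded in the nucleus and imported, and several cytosolic synthetases are held together in the multi-synthetase complex. Many cytosolic synthetase genes are known targets of ATF4, the transcription factor of the integrated stress response and of amino acid shortage, and activated stellate cells make collagen, a protein rich in glycine and proline.

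Library totals ran from 58174812 to 70787741 counts in STINGX with TGFb, from 54035320 to 63193549 in TGFb and from 64151449 to 66738764 in control. Values are CPM, counts divided by library size after TMM scaling, which levels libraries by a trimmed mean, in the order of replicates 1 to 4, and means are given ± SD with n = 4. Gene positions are those of GRCh38 in the deposited files. Of 10 stellate cell markers, 8 averaged at least 1 CPM, while DES and LRAT were at 0 in every library, so those markers of the label were absent. Their summed level was 5049 to 5544 CPM in STINGX with TGFb, 10540 to 10899 CPM in TGFb and 6172 to 6299 CPM in control. Of the markers of other cell types, 1 of 7 for hepatocytes (SERPINA1, with ALB, APOB and TTR at 0), 2 of 5 for endothelium (PECAM1 and KDR), 2 of 6 for macrophages and leukocytes (CD14 and CD68, with CD3E at 0) and 2 of 5 for cholangiocytes (KRT7 and SOX9) averaged at least 1 CPM. In STINGX with TGFb, TGFb and control their summed levels were 3.79 to 3.85, 4.89 to 6.24 and 7.62 to 10.5 CPM for the hepatocyte list and 2.75 to 3.84, 4.19 to 5.11 and 6.12 to 6.46 CPM for the endothelium list. In the same order of groups they were 71.2 to 87.2, 23.9 to 28.9 and 71.7 to 79.2 CPM for the macrophage and leukocyte list and 29.4 to 30.7, 56.7 to 65.1 and 44.7 to 48.8 CPM for the cholangiocyte list. Their part in the synthetase values was not tested. In these bulk samples a change in the amount of RNA per cell and a change in the cells that contribute it cannot be told apart.

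Promoter windows from RefSeq (GRCh38.p14, 250 bases before to 50 after an annotated start) were found for 30 of the 38 genes, in 39 windows. Genes without a window included AARS2, LARS1, TARS3, VARS1, VARS2 and YARS1. The windows were searched on both strands for TGATGNAA, the core of the C/EBP-ATF response element to which ATF4 binds as background knowledge. It stood in 8 of the 30 genes (6 of 14 cytosolic genes, GARS1, and 1 of 14 mitochondrial genes), beside 4.46% of the 27305 genes in the whole table and 3.62% of its 35116 windows. AARS1, CARS1, IARS1, MARS1, NARS1 and TARS1 were the cytosolic genes with a match, and YARS2 the mitochondrial gene. Full windows are shown for AARS1, IARS1 and GARS1, the genes with a match whose levels were higher with STINGX and TGFb than with TGFb, and the 40 bases around the match for the other 5 genes. Each is written 5′ to 3′ on the strand of its gene, and capitals mark the match, which in 6 of the 8 genes was the reverse complement of the searched letters.
AARS1, chr16:70289457-70289756, minus strand: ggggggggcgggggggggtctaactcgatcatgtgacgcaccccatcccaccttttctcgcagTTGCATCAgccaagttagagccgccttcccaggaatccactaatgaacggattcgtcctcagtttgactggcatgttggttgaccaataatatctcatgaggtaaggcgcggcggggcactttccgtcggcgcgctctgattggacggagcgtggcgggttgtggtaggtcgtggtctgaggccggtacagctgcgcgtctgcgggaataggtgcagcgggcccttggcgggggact
IARS1, chr9:92293648-92293947, minus strand: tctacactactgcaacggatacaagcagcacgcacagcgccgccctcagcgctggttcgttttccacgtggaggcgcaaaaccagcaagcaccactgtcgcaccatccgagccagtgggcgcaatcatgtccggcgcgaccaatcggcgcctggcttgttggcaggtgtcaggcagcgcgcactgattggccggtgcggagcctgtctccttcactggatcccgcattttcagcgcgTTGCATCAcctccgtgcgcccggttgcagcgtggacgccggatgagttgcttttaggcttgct
GARS1, chr7:30594628-30594927, plus strand: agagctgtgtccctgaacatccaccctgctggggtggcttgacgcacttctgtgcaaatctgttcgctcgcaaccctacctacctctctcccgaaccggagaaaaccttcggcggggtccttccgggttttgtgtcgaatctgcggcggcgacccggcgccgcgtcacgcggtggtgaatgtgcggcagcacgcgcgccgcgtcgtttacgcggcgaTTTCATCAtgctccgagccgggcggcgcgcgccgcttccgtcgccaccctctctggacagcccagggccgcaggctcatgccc
TARS1, within chr5:33440715-33441014, plus strand: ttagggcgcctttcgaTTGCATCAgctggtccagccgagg
CARS1, within chr11:3057374-3057673, minus strand: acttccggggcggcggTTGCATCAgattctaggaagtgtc
MARS1, within chr12:57487818-57488117, plus strand: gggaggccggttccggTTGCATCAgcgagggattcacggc
NARS1, within chr18:57621787-57622086, minus strand: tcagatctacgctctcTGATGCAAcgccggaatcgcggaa
YARS2, within chr12:32755848-32756147, minus strand: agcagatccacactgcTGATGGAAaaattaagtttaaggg
The letters TTGCATCA occurred in AARS1, CARS1, IARS1, MARS1 and TARS1, their reverse complement in NARS1, and other fillings of the open base in GARS1 and YARS2. The first base of the match stood 197 bases before the annotated start in YARS2, 187 in AARS1 and 33 in GARS1. It stood 13 bases before the start in IARS1, 4 in MARS1 and 2 in CARS1, and in MARS1 and CARS1 the match ran across the start. In TARS1 and NARS1 the match lay after the start. Its first base there was base 3 in TARS1 and base 15 in NARS1, counted from the start base.

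Other elements were searched in the same windows. The NRF1 element, spelled GCGC, any base, TGCGC, matched in 6 of the 30 genes: FARSB, SARS1 and TARS1 among cytosolic genes and IARS2, MARS2 and PARS2 among mitochondrial ones, beside 6.98% of all genes and 5.78% of all windows. The interferon-stimulated response element, spelled GAAA, any 2 bases, GAAA, matched in WARS1, the tryptophanyl enzyme known to be induced by interferon, and in EARS2, beside 4.38% of all genes and 3.57% of all windows. The windows of MARS2, with NRF1 letters at 2 places, and of WARS1 are shown with their matches in capitals. No match overlapped one of another element.
MARS2, chr2:197705119-197705418, plus strand: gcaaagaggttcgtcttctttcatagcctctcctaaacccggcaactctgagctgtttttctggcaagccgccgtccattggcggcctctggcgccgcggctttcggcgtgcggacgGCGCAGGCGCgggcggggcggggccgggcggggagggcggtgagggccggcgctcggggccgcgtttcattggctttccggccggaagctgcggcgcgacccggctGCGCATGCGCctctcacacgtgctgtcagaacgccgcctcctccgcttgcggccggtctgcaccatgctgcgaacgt
WARS1, chr14:100375298-100375597, minus strand: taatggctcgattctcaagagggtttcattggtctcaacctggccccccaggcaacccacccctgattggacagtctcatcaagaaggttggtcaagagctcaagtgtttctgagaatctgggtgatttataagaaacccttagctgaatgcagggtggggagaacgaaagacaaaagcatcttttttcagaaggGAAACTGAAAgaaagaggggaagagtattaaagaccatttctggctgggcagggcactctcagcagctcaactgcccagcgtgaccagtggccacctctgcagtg
A match is a description of letters and was not taken as a site bound in these cells.

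Cytosolic synthetase messages were more abundant per length than mitochondrial ones in all 12 libraries. On the deposited FPKM scale (fragments scaled to gene model length and library size), the summed level of the cytosolic class was 456.4 ± 1.61 in STINGX with TGFb, 413.9 ± 6.40 in TGFb and 384.7 ± 5.51 in control. That of the mitochondrial class was 116.1 ± 0.85, 98.7 ± 1.98 and 100.9 ± 3.09 FPKM in the same groups. These FPKM sums do not carry the TMM scaling, so differences between groups depend on it. With TMM, as CPM per kb of the longest coding transcript, the cytosolic sums were 877.6 ± 5.02, 856.7 ± 16.2 and 785.8 ± 16.1. The mitochondrial sums on that scale were 199.2 ± 1.82, 186.1 ± 3.03 and 189.3 ± 3.72. None of the 10 highest members was mitochondrial, and 9 of the 10 lowest were. TARS1, which charges threonine, led with a mean of 91.8 FPKM over the 12 libraries, followed by NARS1 (asparagine, 41.8 FPKM), SARS1 (serine, 37.3 FPKM), QARS1 (glutamine, 30.5 FPKM) and IARS1 (isoleucine, 30.0 FPKM). The ranges of QARS1 (23.6 to 37.7 FPKM) and IARS1 (20.5 to 41.5 FPKM) overlapped over the 12 libraries, but not within any group. QARS1 was higher in control (32.4 to 37.7 FPKM, IARS1 20.5 to 26.3) and in TGFb (30.6 to 31.9, IARS1 25.2 to 30.2). IARS1 was higher in STINGX with TGFb (34.5 to 41.5 FPKM, QARS1 23.6 to 27.3), so their order depends on the group. IARS2, the mitochondrial isoleucyl enzyme, was highest in its class on FPKM at 16.5 and EARS2, the mitochondrial glutamyl enzyme, lowest of all members on that scale at 1.46. TARS3, a second threonyl enzyme classed here with the cytosolic set by its symbol, had 1.59 FPKM and was the lowest of that class.

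The length behind FPKM mattered for the order of members. The deposited values implied lengths of 1.17 to 7.84 times the longest coding transcript that GENCODE 29 lists, with a median of 1.92 over the 38 genes. GARS1 had the largest ratio, 7.84, with 20.7 kb implied and a coding transcript of 2.63 kb, followed by CARS2 (6.64, from 12.5 kb and 1.88 kb) and LARS1 (5.15, from 24.6 kb and 4.77 kb). Dividing CPM by the coding length, a choice made after these lengths were seen, left TARS1 first (107.9 CPM per kb) and moved GARS1 to rank 10 of 38 (43.1 CPM per kb), where FPKM placed it at rank 26. On that scale RARS2, the mitochondrial arginyl enzyme, was above IARS2 (25.4 and 22.8 CPM per kb), and TARS3 was below EARS2 (2.33 and 3.09 CPM per kb). Of 18 pairs of a cytosolic and a mitochondrial gene for the same amino acid, in which EPRS1 and FARS2 each stand 2 times, 16 had the cytosolic partner higher in all 12 libraries on FPKM, and 18 per coding length. Exceptions on FPKM were the histidyl and tyrosyl pairs. HARS1 over HARS2 gave ratios of 0.850 ± 0.0454 in STINGX with TGFb, 1.09 ± 0.159 in TGFb and 0.998 ± 0.123 in control on FPKM, but 2.32 ± 0.123, 2.96 ± 0.434 and 2.73 ± 0.335 per coding length. YARS1 over YARS2 gave 0.602 ± 0.0371, 0.702 ± 0.0256 and 0.754 ± 0.0596 on FPKM, but 1.82 ± 0.112, 2.12 ± 0.0776 and 2.28 ± 0.180 per coding length. Per coding length the ratio ran from 1.21 to 2.24 over the libraries for CARS1 over CARS2 and from 10.5 to 16.1 for MARS1 over MARS2, the methionyl pair.

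**Figure D1:**
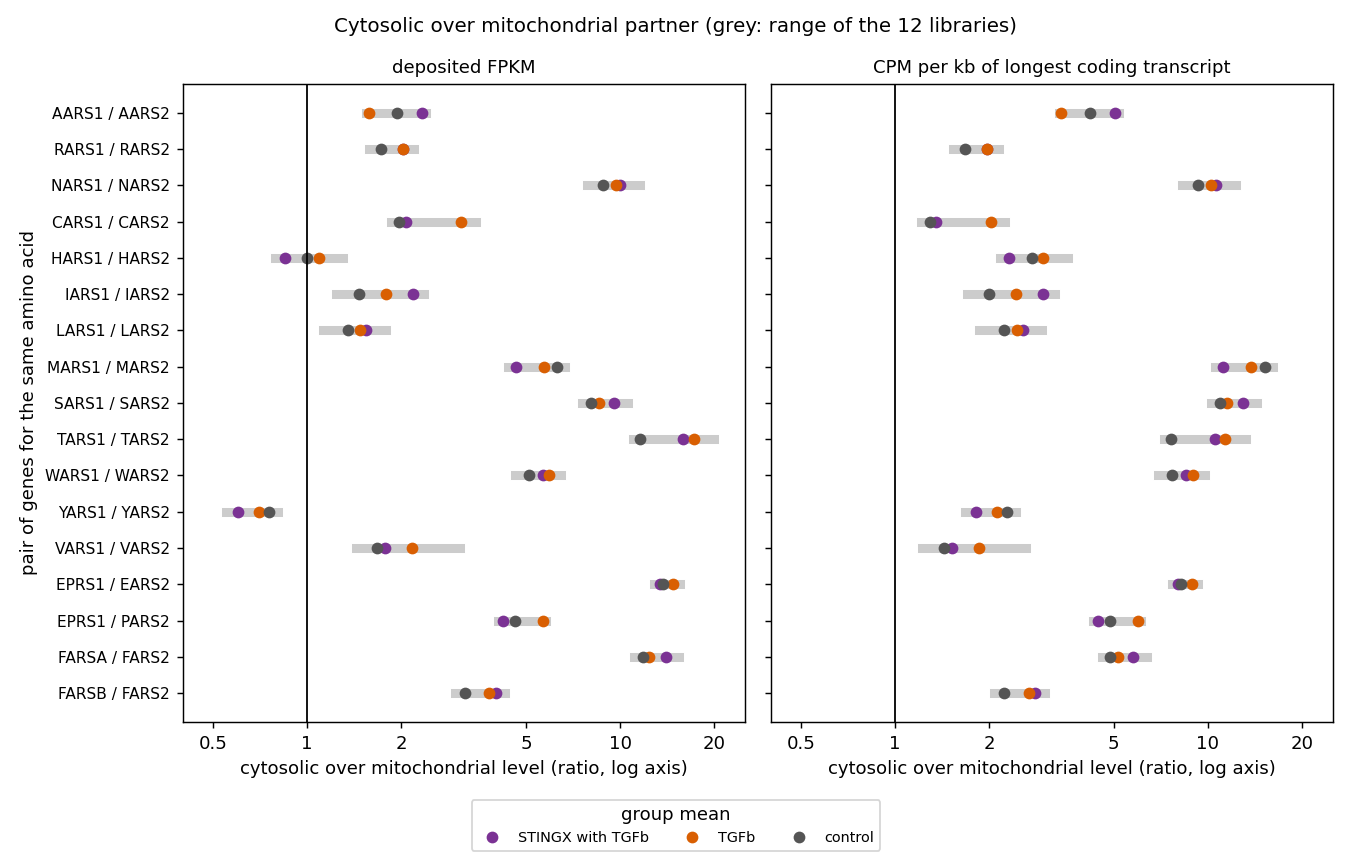
Ratio of the level of cytosolic synthetase genes to the mitochondrial partner (log axis) on the deposited FPKM scale (left) and as CPM per kilobase of the longest coding transcript (right). Coloured points are means of 4 libraries in STINGX with TGFb, TGFb and control, grey bars span the 12 libraries, and the line stands at a ratio of 1. On the left only, the bar of HARS1 over HARS2 crosses the line and that of YARS1 over YARS2 lies below it.

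TGFb against control asked what the cytokine changed in the family. Of the 38 genes, 11 rose with TGFb and 2 fell, and none moved by more than 1.62-fold. Higher calls made up 28.9% of the members and lower calls 5.26%, against 13.2% and 12.8% of all genes tested. Libraries of the 2 groups did not overlap for 16 of 38 members, or 42.1%, against 27.1% of all genes. The cytosolic class had 7 higher and 1 lower of 19, with a median log2 fold change of 0.127, the mitochondrial class 2 higher and 1 lower of 17, with a median of -0.007, and both GARS1 and KARS1 were higher, where the median of all genes was -0.004. Calls are from edgeR's quasi-likelihood test at a Benjamini-Hochberg adjusted p under 0.05.

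VARS1, the valyl enzyme (ENSG00000204394, chromosome 6, 31777518 to 31795752, minus strand), had 105.6, 102.1, 104.8 and 105.2 CPM in STINGX with TGFb, 119.9, 124.8, 131.7 and 130.1 CPM in TGFb and 87.8, 85.9, 87.0 and 83.1 CPM in control. TGFb libraries were all above the other groups, and control libraries all below. VARS1 rose with TGFb against control (log2 fold change 0.56 ± 0.04 SE, adjusted p = 3.50e-07). TARS1 (ENSG00000113407, chromosome 5, 33440696 to 33468091, plus strand) had 466.7, 481.7, 451.8 and 478.6 CPM in STINGX with TGFb, 526.3, 566.8, 504.2 and 533.6 CPM in TGFb and 410.3, 400.6, 396.7 and 369.3 CPM in control. Its groups stood apart in the same order, and it too rose with TGFb (log2 fold change 0.43 ± 0.04 SE, adjusted p = 9.47e-06). HARS1, the histidyl enzyme (ENSG00000170445, chromosome 5, 140673035 to 140691537, minus strand), had 128.3, 134.9, 130.4 and 138.3 CPM in STINGX with TGFb, 143.3, 150.7, 162.5 and 133.6 CPM in TGFb and 123.7, 114.9, 114.9 and 122.8 CPM in control. Each TGFb library lay above each control library, and HARS1 rose (log2 fold change 0.31 ± 0.06 SE, adjusted p = 0.00146). It overlaps DND1 on its own strand and HARS2 and WDR55 on the other, so reads shared with them are uncertain.

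EPRS1, the bifunctional glutamyl and prolyl enzyme (ENSG00000136628, chromosome 1, 219968600 to 220046530, minus strand), had 135.1, 133.7, 130.7 and 135.7 CPM in STINGX with TGFb, 142.0, 132.7, 136.5 and 140.2 CPM in TGFb and 117.1, 112.1, 122.1 and 116.7 CPM in control. Control was lowest with no overlap, and the treated groups overlapped each other. EPRS1 rose with TGFb (log2 fold change 0.24 ± 0.04 SE, adjusted p = 0.000493). KARS1, the lysyl enzyme of both compartments (ENSG00000065427, chromosome 16, 75627474 to 75647665, minus strand), had 120.3, 121.4, 108.5 and 119.9 CPM in STINGX with TGFb, 120.7, 140.6, 123.7 and 131.0 CPM in TGFb and 113.6, 112.1, 104.9 and 107.2 CPM in control. TGFb libraries all exceeded control libraries, and KARS1 rose (log2 fold change 0.24 ± 0.06 SE, adjusted p = 0.00686). GARS1, the glycyl enzyme of both compartments (ENSG00000106105, chromosome 7, 30580533 to 30634033, plus strand), had 140.8, 138.4, 136.5 and 141.9 CPM in STINGX with TGFb, 100.3, 114.0, 107.9 and 114.2 CPM in TGFb and 95.3, 92.3, 93.6 and 87.5 CPM in control. The 3 groups did not overlap, with STINGX with TGFb highest and control lowest. GARS1 rose with TGFb against control (log2 fold change 0.24 ± 0.05 SE, adjusted p = 0.00211), and it overlaps GARS1-DT on the opposite strand. RARS1, which charges arginine, also rose (0.24 ± 0.04 SE, adjusted p = 0.00069).

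TARS3 (ENSG00000185418, chromosome 15, 101653596 to 101724473, minus strand) had only 7.67, 8.67, 9.63 and 9.74 CPM in STINGX with TGFb, 7.7, 9.07, 9.78 and 11.3 CPM in TGFb and 6.01, 6.71, 8.38 and 6.45 CPM in control. Libraries of TGFb and control overlapped, and TARS3 was called higher with a wide error (0.45 ± 0.14 SE, adjusted p = 0.0314). That call was lost, at adjusted p between 0.0516 and 0.0981, when 1 of TGFb replicates 2, 3 and 4 or control replicates 1, 2 and 4 was left out. YARS1, the cytosolic tyrosyl enzyme, was called higher by a small margin (0.17 ± 0.06 SE, adjusted p = 0.0448). Its call was lost at adjusted p between 0.0532 and 0.136 when 1 of STINGX with TGFb replicates 1 and 2, TGFb replicates 2, 3 and 4 or control replicates 2, 3 and 4 was left out. LARS1 and VARS2, the cytosolic leucyl and mitochondrial valyl enzymes, were not called (0.13 ± 0.06 and 0.23 ± 0.16), and passed without TGFb replicate 1 (adjusted p = 0.0406) and without TGFb replicate 2 (adjusted p = 0.0223).

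AARS1, the alanyl enzyme (ENSG00000090861, chromosome 16, 70251983 to 70289707, minus strand), was the cytosolic gene that fell with TGFb. It had 250.2, 260.1, 251.5 and 253.8 CPM in STINGX with TGFb, 160.4, 149.4, 167.0 and 161.5 CPM in TGFb and 192.0, 173.6, 182.8 and 184.7 CPM in control. The TGFb libraries were the lowest and those of STINGX with TGFb the highest, with no overlap among the 3 groups. It fell with TGFb against control (log2 fold change -0.20 ± 0.04 SE, adjusted p = 0.00372), and it overlaps DDX19B on the opposite strand. CARS2, the mitochondrial cysteinyl enzyme (ENSG00000134905, chromosome 13, 110641412 to 110713603, minus strand), had 31.5, 32.2, 30.0 and 35.4 CPM in STINGX with TGFb, 25.4, 22.8, 25.3 and 22.1 CPM in TGFb and 38.9, 37.9, 37.8 and 40.4 CPM in control. Control was highest, TGFb lowest, and no group overlapped another. CARS2 fell by 0.69 on the log2 scale with TGFb (± 0.07 SE, adjusted p = 6.73e-06), the largest change of any member in this comparison, and overlaps ING1 on the opposite strand.

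YARS2, the mitochondrial tyrosyl enzyme (ENSG00000139131, chromosome 12, 32727490 to 32755897, minus strand), had 35.2, 32.5, 29.8 and 36.2 CPM in STINGX with TGFb, 28.3, 32.9, 27.0 and 27.5 CPM in TGFb and 23.6, 24.3, 25.2 and 22.6 CPM in control. It rose with TGFb against control (log2 fold change 0.28 ± 0.08 SE, adjusted p = 0.0234), whose libraries it did not overlap. YARS2 overlaps 2 tested genes on its own strand, both named AC084824, and AC087588 and DNM1L on the other, so reads shared with them are uncertain. MARS2, the mitochondrial methionyl enzyme (ENSG00000247626, chromosome 2, 197705369 to 197708395, plus strand), had 17.6, 19.1, 17.7 and 16.6 CPM in STINGX with TGFb, 14.3, 14.8, 14.2 and 15.3 CPM in TGFb and 12, 11.5, 13.0 and 12.8 CPM in control. The 3 groups did not overlap, with STINGX with TGFb highest and control lowest, and MARS2 rose with TGFb (log2 fold change 0.25 ± 0.07 SE, adjusted p = 0.0199). The call of YARS2 was lost without TGFb replicate 2 or control replicate 1 or 4 (adjusted p 0.0544 to 0.0747), and that of MARS2 without TGFb replicate 4 or control replicate 1 or 2 (0.0514 to 0.0596). With libraries scaled by total size alone, 38.7% of all calls were higher, against 50.7% with TMM, the median of all genes was -0.068, and no mitochondrial gene was called higher. TARS3, YARS1, YARS2 and MARS2 lost their calls on that scale, while the cytosolic median stayed 0.131 above the median of all genes on both.

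**Figure D2:**
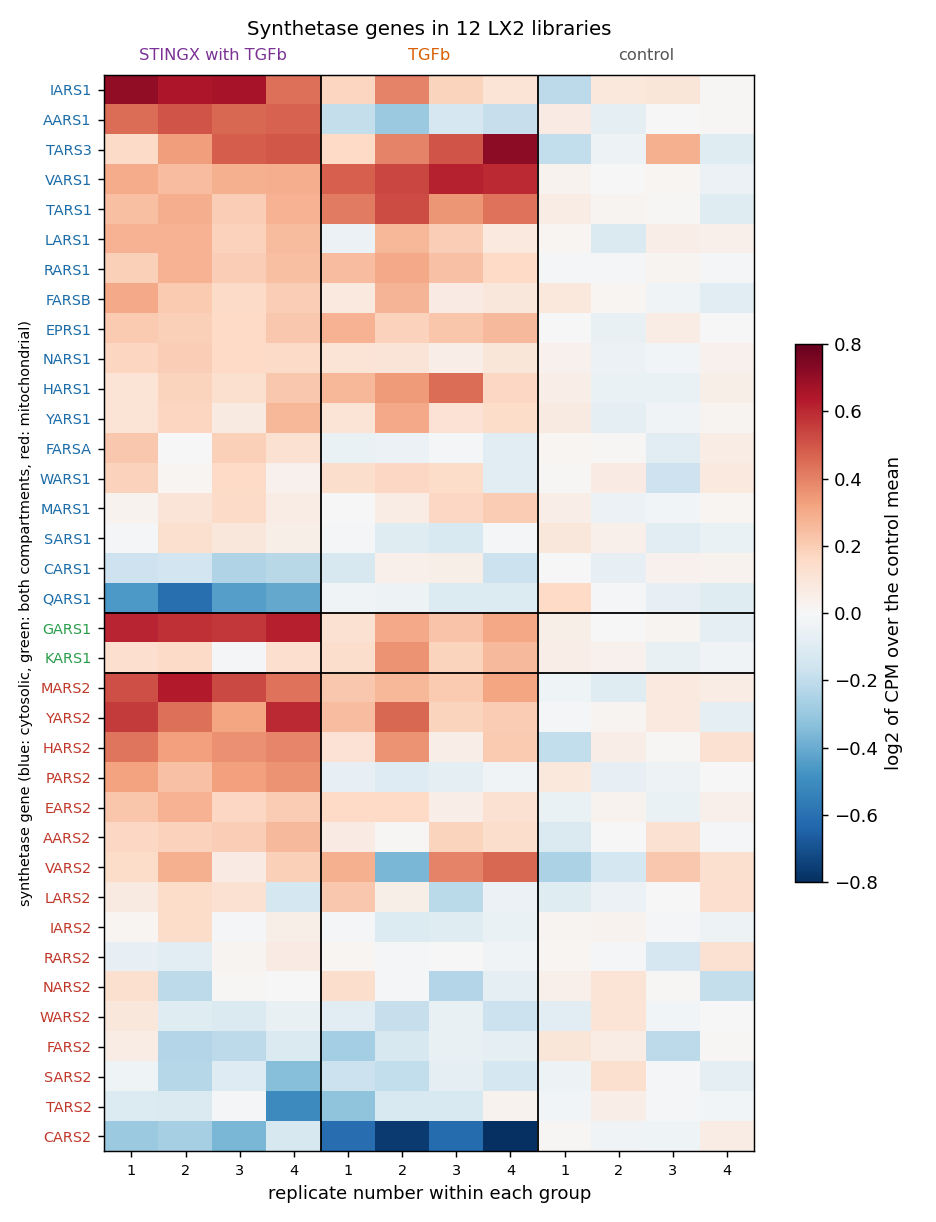
CPM of synthetase genes in each library as the log2 of its ratio to the control mean (colour), in columns of STINGX with TGFb, TGFb and control and rows grouped by compartment. VARS1 and TARS1 are each redder in TGFb than in the other groups. AARS1, IARS1 and GARS1 are each redder in STINGX with TGFb than in the other groups, and CARS2 is bluer in TGFb than in the other groups.

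STINGX with TGFb against TGFb addressed the effect of the compound on cells given the cytokine, and it shares the TGFb libraries with the comparison above. Of 38 genes, 7 rose and 3 fell, by at most 1.59-fold. Higher calls were 18.4% of the members and lower calls 7.89%, against 13.7% and 13.8% of all genes, and the libraries did not overlap for 14 members, or 36.8%, against 31.6% of all genes. The share of members with libraries apart lies near that of all genes. The cytosolic class had 3 higher and 3 lower of 19 (median log2 fold change -0.011) and the mitochondrial class 3 higher and 0 lower of 17 (median 0.082), beside a median of 0.006 for all genes.

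AARS1, whose values are given above, rose with STINGX and TGFb (log2 fold change 0.67 ± 0.04 SE, adjusted p = 1.34e-07), the largest change of any member in this comparison. GARS1 rose as well (log2 fold change 0.35 ± 0.05 SE, adjusted p = 0.000103). IARS1, the isoleucyl enzyme (ENSG00000196305, chromosome 9, 92210207 to 92293700, minus strand), had 348.3, 334.0, 336.7 and 288.7 CPM in STINGX with TGFb, 240.2, 280.3, 240.9 and 229.9 CPM in TGFb and 184.2, 226.2, 227.4 and 214.4 CPM in control. All libraries of STINGX with TGFb were above all others, and IARS1 rose (log2 fold change 0.40 ± 0.08 SE, adjusted p = 0.00285). The division of its counts among transcripts differed between libraries. In STINGX with TGFb replicates 1 to 3, a transcript coding for 174 residues took 90.2%, 91.4% and 90.5% of IARS1 counts, but 0.0% in replicate 4, the lowest of that group. In TGFb it took 93.5% in replicate 2, the highest of that group, and 0.0% in the others and in all control libraries. Among libraries where it took 0.0%, STINGX with TGFb replicate 4 had 288.7 CPM. TGFb replicates 1, 3 and 4 had 229.9 to 240.9 CPM and control libraries 184.2 to 227.4 CPM. The part of this transcript in the rise was not tested.

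QARS1, the glutaminyl enzyme, which has no mitochondrial partner in the family (ENSG00000172053, chromosome 3, 49095932 to 49105123, minus strand), had 140.2, 126.5, 141.6 and 145.1 CPM in STINGX with TGFb, 188.6, 187.3, 178.5 and 178.1 CPM in TGFb and 215.0, 191.6, 183.7 and 179.8 CPM in control. Libraries of STINGX with TGFb were all below the other groups, which overlapped each other. QARS1 fell with STINGX and TGFb (log2 fold change -0.40 ± 0.06 SE, adjusted p = 0.000243). VARS1 fell by less (-0.28 ± 0.04 SE, adjusted p = 0.000174) and kept a level above control, and TARS1 likewise (-0.18 ± 0.04 SE, adjusted p = 0.00791). FARSA, the alpha subunit of the cytosolic phenylalanyl enzyme, was called higher (0.18 ± 0.05 SE, adjusted p = 0.019), and its partner subunit FARSB was not (0.09 ± 0.06 SE, adjusted p = 0.323).

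CARS2 rose with STINGX and TGFb (log2 fold change 0.43 ± 0.07 SE, adjusted p = 0.000394), to levels between those of TGFb and control. PARS2, the mitochondrial prolyl enzyme (ENSG00000162396, chromosome 1, 54756898 to 54764523, minus strand), had 14.1, 13.3, 14.2 and 14.5 CPM in STINGX with TGFb, 10.8, 10.5, 10.7 and 11.1 CPM in TGFb and 12, 10.8, 11 and 11.3 CPM in control. All 4 libraries of STINGX with TGFb were above the rest, while TGFb and control overlapped, and PARS2 rose (log2 fold change 0.38 ± 0.07 SE, adjusted p = 0.000828). MARS2 rose too (0.28 ± 0.07 SE, adjusted p = 0.00968). YARS2 (adjusted p = 0.0723) and HARS2 (adjusted p = 0.0966) had log2 fold changes of 0.21 ± 0.08 and 0.19 ± 0.08 and were not called. Both passed without TGFb replicate 2, at adjusted p = 0.0203 and 0.0336, and YARS2 also without STINGX with TGFb replicate 3, at 0.0344. CARS1 and HARS1 passed as lower without TGFb replicate 4, at 0.0336 and 0.0207, and FARSA lost its call without STINGX with TGFb replicate 1 or 3 or TGFb replicate 4, at 0.0525 to 0.0619.

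Scaling mattered more here than in the other comparisons. With total size alone, the median of all genes was 0.147 and 72.6% of all calls were higher, against 50% with TMM. On that scale and in both FPKM tests 9 cytosolic and 9 mitochondrial genes were called higher, against 3 and 3 with TMM. The cytosolic median on total size alone turned to 0.130 and the mitochondrial one was 0.223, which relative to all genes were -0.017 and 0.076, as with TMM. TARS1 lost its call on these scales (-0.04, adjusted p up to 0.458), and RARS1, at -0.01 ± 0.04 with TMM, turned to a called rise of 0.13. AARS1, CARS2, GARS1, IARS1, MARS2, PARS2, QARS1 and VARS1 were called under every alternative and with any library left out.

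**Figure D3:**
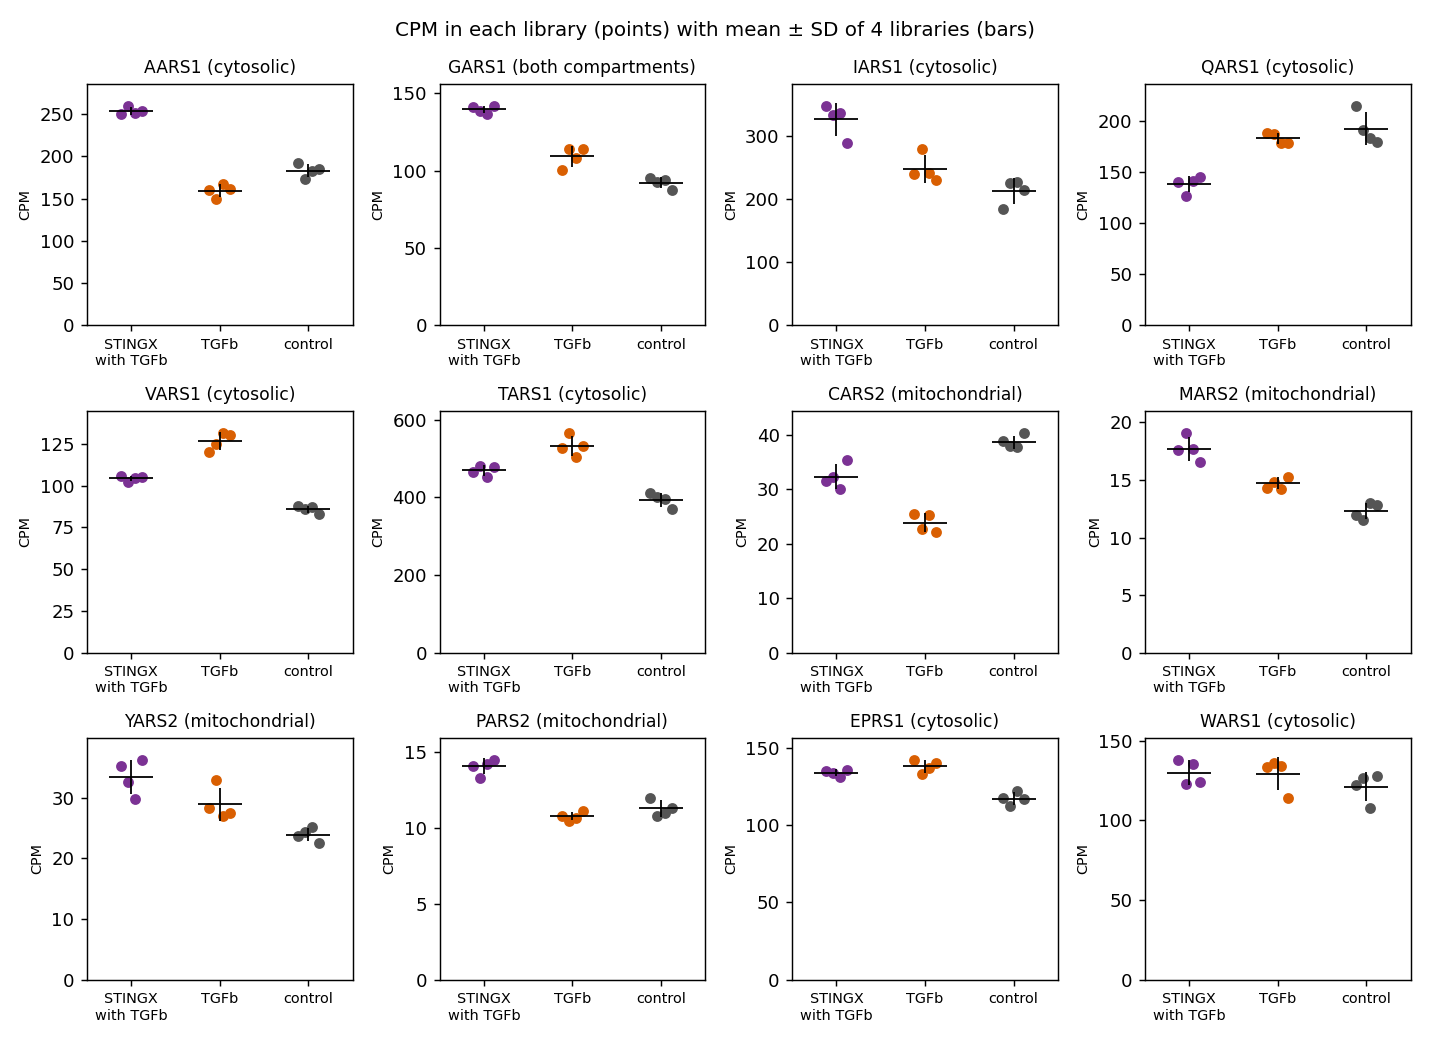
CPM of 12 synthetase genes in each library (points) with the mean and SD of 4 libraries (bars), in STINGX with TGFb, TGFb and control. AARS1, IARS1, GARS1, MARS2 and PARS2 are highest in STINGX with TGFb, VARS1 and TARS1 in TGFb, and CARS2 in control, while QARS1 is lowest in STINGX with TGFb and the groups of WARS1 overlap.

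STINGX with TGFb against control set both treatments against untreated cells and shares libraries with both comparisons above. In it 17 of 38 genes rose and 3 fell, by at most 1.53-fold. Higher calls were 44.7% of members and lower calls 7.89%, against 17.2% and 17.0% of all genes, and 20 members, or 52.6%, had libraries that did not overlap, against 34.5% of all genes. The cytosolic class had 10 higher and 2 lower of 19 (median 0.170) and the mitochondrial class 6 higher and 1 lower of 17 (median 0.050), beside a median of 0.004 for all genes. On total size alone 62.0% of all calls were higher, against 50.3% with TMM, and relative to all genes the cytosolic median was 0.166 on both scales.

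IARS1 had the largest rise (log2 fold change 0.62 ± 0.08 SE, adjusted p = 8.28e-05), then GARS1 (0.60 ± 0.05 SE, adjusted p = 8.78e-07), MARS2 (0.52 ± 0.07 SE, adjusted p = 7.18e-05), YARS2 (0.48 ± 0.08 SE, adjusted p = 0.000452) and AARS1 (0.47 ± 0.04 SE, adjusted p = 2.74e-06). All 5 rose, and their libraries in these 2 groups did not overlap. Smaller rises of 0.16 to 0.28 were called in the cytosolic genes EPRS1, FARSB, HARS1, LARS1, NARS1, RARS1, TARS1 and VARS1. Among mitochondrial genes AARS2, EARS2, HARS2 and PARS2 rose by 0.20 to 0.38. With upper quartile scaling AARS2 (adjusted p = 0.0622) and EARS2 (adjusted p = 0.05) lost their calls. HARS2, the mitochondrial histidyl enzyme (ENSG00000112855, chromosome 5, 140691430 to 140699291, plus strand), had 42.6, 39.7, 40.8 and 41.5 CPM in STINGX with TGFb, 34.3, 40.6, 32.8 and 36.6 CPM in TGFb and 27.6, 32.8, 31.8 and 34.4 CPM in control. Every library of STINGX with TGFb exceeded every control library, though TGFb overlapped both groups, and HARS2 rose (log2 fold change 0.38 ± 0.08 SE, adjusted p = 0.00246). It overlaps HARS1 on the opposite strand and ZMAT2 on its own.

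QARS1 fell (log2 fold change -0.48 ± 0.06 SE, adjusted p = 4.92e-05), as did CARS2 (-0.26 ± 0.07 SE, adjusted p = 0.00818) and CARS1, the cytosolic cysteinyl enzyme (-0.19 ± 0.06 SE, adjusted p = 0.0176). On total size alone CARS1 and CARS2 lost their calls, and CARS1 also without STINGX with TGFb replicate 3 (adjusted p = 0.0521). The call of HARS1 (0.16 ± 0.06 SE, adjusted p = 0.0489) was lost at adjusted p between 0.053 and 0.125 with any 1 library of STINGX with TGFb or control left out, or without TGFb replicate 1 or 2. That call was also lost in 6 of 11 other settings, DESeq2 and upper quartile scaling among them, at adjusted p between 0.0516 and 0.168. FARSA was not called but passed without STINGX with TGFb replicate 2 (adjusted p = 0.0178). YARS1 passed without STINGX with TGFb replicate 3, TGFb replicate 2 or control replicate 1 (0.0347 to 0.0446), and TARS3 without STINGX with TGFb replicate 1, TGFb replicate 1 or 4, or control replicate 3 (0.0213 to 0.046).

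No comparison called 14 members, with WARS1, FARS2, IARS2, LARS2, NARS2, RARS2, SARS2, TARS2, VARS2 and WARS2 among them. They also include MARS1, the cytosolic methionyl enzyme, whose gene overlaps DDIT3 on the opposite strand, and SARS1, the third highest of the family in FPKM. Some of them passed on other scales. With total size alone and in both FPKM tests IARS2 passed in all 3 comparisons (adjusted p 0.000321 to 0.0375), as lower with TGFb against control and as higher in the others. Under the same settings SARS1 and WARS2 passed as higher with STINGX and TGFb against TGFb, and SARS1 and MARS1 as higher against control. IARS2 (adjusted p = 0.0479, with a filter of 1 CPM in 4 libraries) and SARS1 (adjusted p = 0.0321, fitting only the 2 groups) also passed in STINGX with TGFb against TGFb. SARS1 passed as lower with TGFb against control on total size alone (adjusted p = 0.0493), VARS2 without TGFb replicate 2 as given above, and SARS2 as lower against control with upper quartile scaling (adjusted p = 0.0408). A gene that was not called was not shown to be unchanged.

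**Figure D4:**
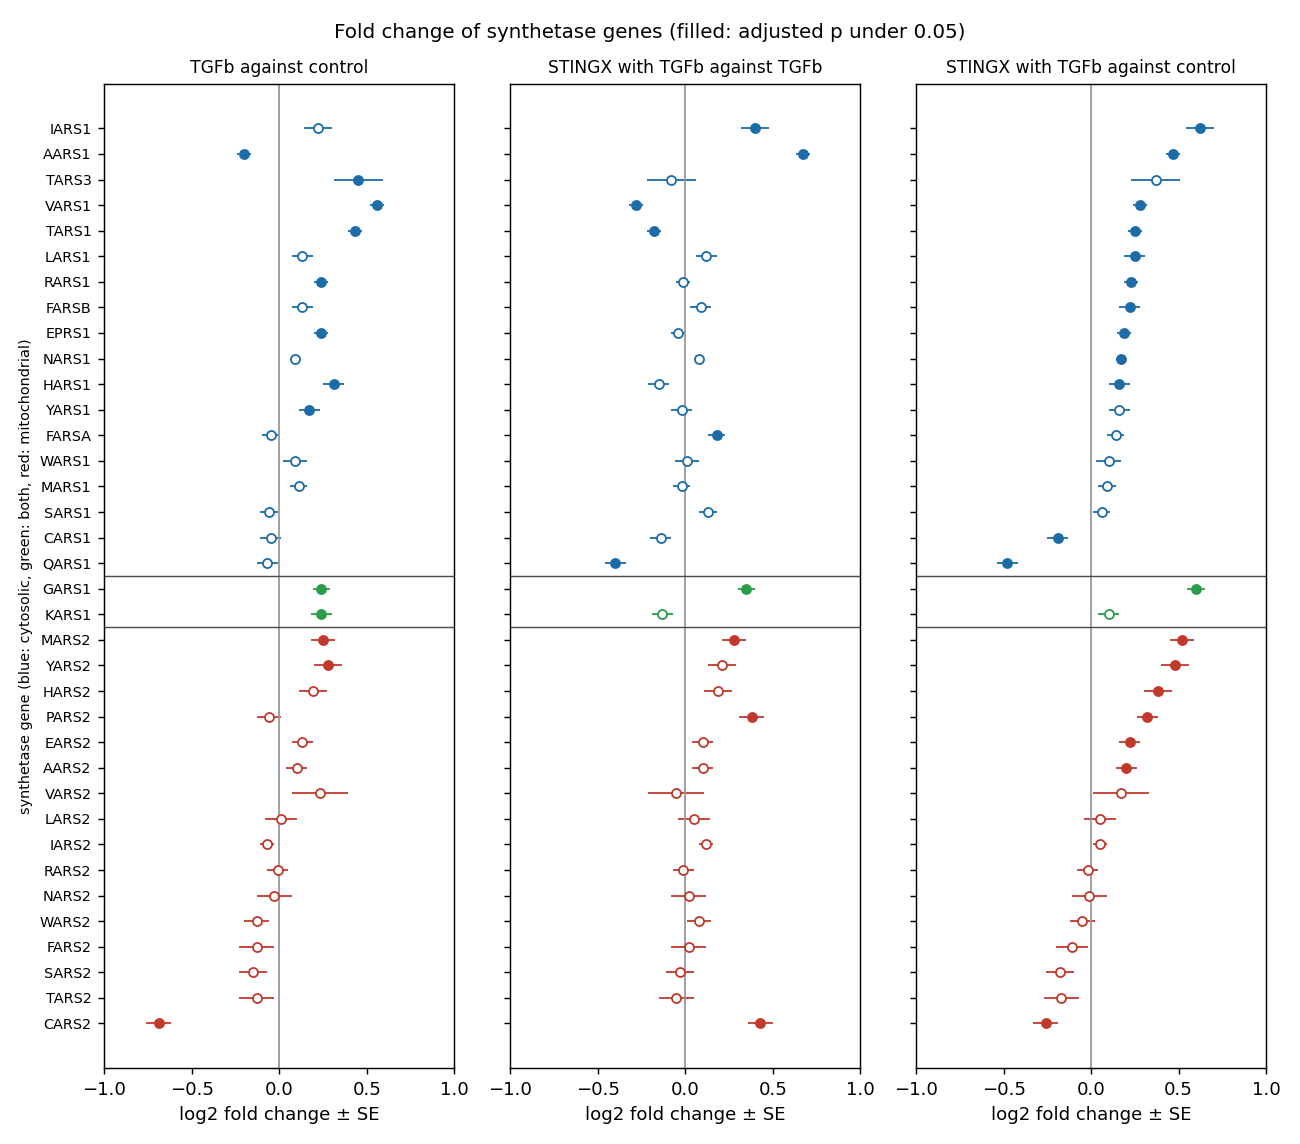
Log2 fold change ± SE of synthetase genes in the 3 comparisons, by compartment, with filled points for an adjusted p under 0.05. Most filled cytosolic points lie right of 0 for TGFb against control and for STINGX with TGFb against control, while 3 lie on each side for STINGX with TGFb against TGFb.

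As classes, cytosolic and mitochondrial genes were compared over all 12 libraries without a test, since members are not replicates. The median over the cytosolic genes of the log2 ratio to the control mean was 0.188, 0.193, 0.159 and 0.214 in STINGX with TGFb, 0.111, 0.182, 0.147 and 0.097 in TGFb, and 0.032, -0.008, -0.021 and 0.009 in control. Every treated library was above every control library. For mitochondrial genes the medians were 0.085, 0.145, 0.063 and 0.049 in STINGX with TGFb, 0.065, -0.016, -0.060 and -0.018 in TGFb, and ran from -0.021 to 0.026 in control. With TMM the STINGX with TGFb libraries lay above control, and those of TGFb lay on both sides. The mitochondrial median log2 fold change of STINGX with TGFb against control depended on scaling. It was 0.050 with TMM, -0.0 with upper quartile scaling and 0.128 on total size alone. Relative to all genes it was 0.046, 0.047 and 0.047. The cytosolic less the mitochondrial median was 0.103 ± 0.048 in STINGX with TGFb, 0.142 ± 0.076 in TGFb and 0.005 ± 0.037 in control. Both treated groups overlapped control in this difference. It was 0.048 in STINGX with TGFb replicate 2 and 0.046 in TGFb replicate 1, below the 0.053 of control replicate 1. The ratio of summed cytosolic to summed mitochondrial FPKM was 3.93 ± 0.0343 in STINGX with TGFb, 4.20 ± 0.135 in TGFb and 3.82 ± 0.140 in control. Per coding length that ratio was 4.41 ± 0.0397, 4.60 ± 0.163 and 4.15 ± 0.158 in the same groups. On FPKM, TGFb libraries (4.08 to 4.39) were all above control (3.71 to 4.02), and those of STINGX with TGFb (3.90 to 3.97) overlapped control. Sums give most weight to the most abundant genes. TARS1 alone had 77.5 ± 2.80 FPKM in control and 100.5 ± 4.40 FPKM in TGFb. The cytosolic sum was 384.7 and 413.9 FPKM in these groups, so much of its difference on this scale lay in TARS1. As CPM per kb of coding length, TARS1 had 91.4 ± 4.07 in control and 123.5 ± 6.02 in TGFb. The cytosolic sum on that scale was 785.8 and 856.7, so TARS1 made up a smaller part of the difference. The ratio without TARS1 was not computed.

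**Figure D5:**
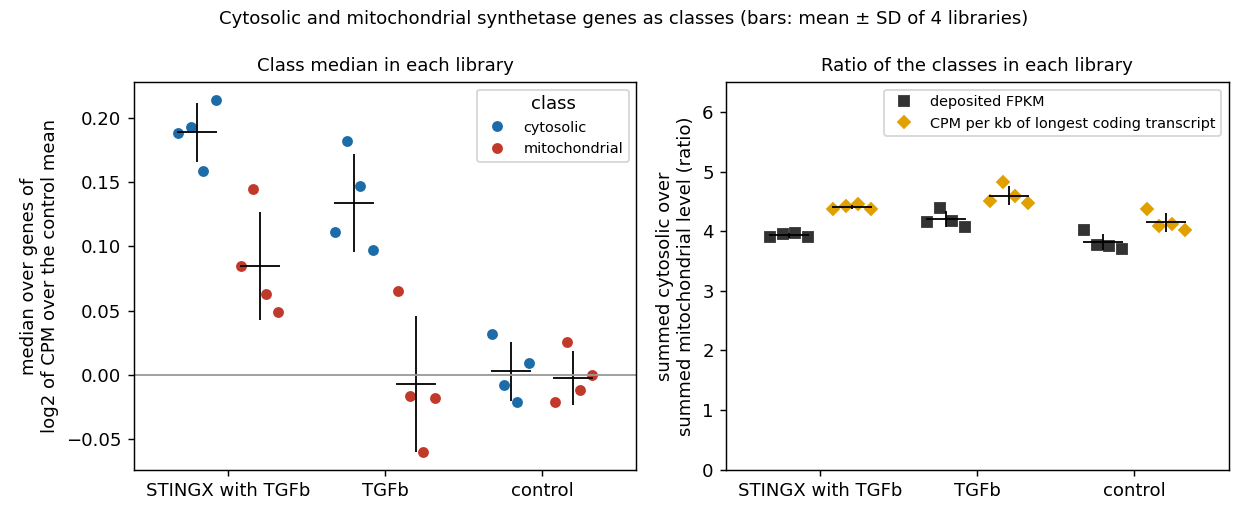
Left, median over cytosolic (blue) and mitochondrial (red) synthetase genes of the log2 ratio of CPM to the control mean in each library. Right, summed cytosolic over summed mitochondrial level in each library on FPKM (squares) and per kilobase of the longest coding transcript (diamonds). Bars are mean ± SD of 4 libraries, and the cytosolic medians of both treated groups lie above all control libraries.

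The multi-synthetase complex was described through 8 enzymes of the family that it holds, EPRS1, IARS1, LARS1, QARS1, RARS1 and KARS1 among them, a list chosen with values known and given no test. With TGFb against control 3 rose (EPRS1, KARS1 and RARS1) and 0 fell, where 13.2% of all genes were called higher and 12.8% lower. With STINGX and TGFb against TGFb, IARS1 rose and QARS1 fell, where 13.7% and 13.8% of all genes were called, so 1 of 8 each way is near the share of all genes. Against control STINGX with TGFb had 4 higher (EPRS1, IARS1, LARS1 and RARS1) and QARS1 lower, where 17.2% and 17.0% of all genes were called. Of its 3 scaffold proteins, AIMP2 rose with TGFb (0.50 ± 0.08 SE, adjusted p = 0.000433) and with STINGX and TGFb against control (0.37 ± 0.08 SE, adjusted p = 0.003).

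WARS1 (ENSG00000140105, chromosome 14, 100333790 to 100376343, minus strand) had 138.0, 122.7, 135.3 and 123.9 CPM in STINGX with TGFb, 133.6, 135.8, 134.2 and 113.8 CPM in TGFb and 122.0, 126.7, 107.9 and 128.1 CPM in control. All groups overlapped, and no comparison called it (log2 fold changes 0.09 ± 0.07, 0.01 ± 0.07 and 0.10 ± 0.07 for TGFb against control, STINGX with TGFb against TGFb and STINGX with TGFb against control). The 3 transcripts that code for the full 471 residues took 51.6%, 44.2%, 42.9% and 41.9% of its counts in STINGX with TGFb, 34.3%, 34.1%, 35.5% and 38.0% in TGFb, and 40.3%, 42.8%, 43.0% and 43.7% in control. The TGFb libraries were the lowest in that share and overlapped neither other group. WARS1 overlaps AL157871 on the opposite strand. KARS1 makes its cytosolic and mitochondrial enzymes from alternative transcripts. The transcript for the mitochondrial form of 625 residues took 6.14% to 67.6% of KARS1 counts over the 12 libraries and that for the cytosolic form of 597 residues 17.4% to 77.6%. A transcript annotated for nonsense-mediated decay, with no enzyme form given, took 4.58% to 51.6%. Each of these shares varied widely within each group, and the groups overlapped. These shares rest on the authors' division of reads among transcripts.

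The calls of genes with and without the TGATGNAA letters are given side by side as counts, with no test. With STINGX and TGFb against TGFb, 3 of the 8 genes with a match rose (AARS1, GARS1 and IARS1), TARS1 fell and 4 were not called, while of 22 genes with a window and no match 4 rose, 1 fell and 17 were not called. Against control, STINGX with TGFb had 6 higher and CARS1 lower of the 8, beside 8 higher and 2 lower of the 22. With TGFb against control there were 3 higher and 1 lower of the 8, beside 5 higher and 1 lower of the 22. In the order of these comparisons, 13.7%, 17.2% and 13.2% of all genes were called higher and 13.8%, 17.0% and 12.8% lower. The 1 lower gene of 8 is near those shares. The 8 genes without a window, VARS1 among them, enter neither count.

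Other genes of the pathway came from lists chosen with earlier results of these data known. In a list of 24 genes of ATF4 and the amino acid response, 17 rose and 3 fell with STINGX and TGFb against TGFb (median log2 fold change 0.323), 17 rose and 4 fell against control (0.361), and 7 rose and 6 fell with TGFb against control (-0.018). Of all genes 13.7% were called higher and 13.8% lower in the first of these comparisons, 17.2% and 17.0% in the second and 13.2% and 12.8% in the third. SLC3A2, the heavy chain of several amino acid transporters, had 1294 ± 113.6 CPM in STINGX with TGFb against 212.3 ± 20.5 CPM in TGFb (2.61 ± 0.08 SE, adjusted p = 2.63e-10). TRIB3, a pseudokinase induced by ATF4, had 151.1 ± 4.37 against 41.5 ± 2.35 CPM (1.87 ± 0.07 SE, adjusted p = 6.82e-10) in the same groups. SLC7A11, the cystine transporter that pairs with SLC3A2, had 84.0 ± 2.34 CPM in STINGX with TGFb against 25.8 ± 1.59 CPM in TGFb (1.70 ± 0.07 SE, adjusted p = 1.64e-09). These genes were named for the size of their change within the list. Their differences are larger than that of any synthetase gene, whereas the list median of 0.323 was not. Of 6 kinases and phosphatase subunits of the integrated stress response, 2 rose and 1 fell with STINGX and TGFb against TGFb. PPP1R15A, the stress-induced subunit that lets eIF2 be dephosphorylated, rose (1.40 ± 0.03 SE, adjusted p = 1.58e-11), and EIF2AK2, the kinase PKR, fell (-0.50 ± 0.06 SE, adjusted p = 3.24e-05).

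The shares of all genes called, just given, apply to the short lists that follow, which hold too few genes to be set apart from them by count. Of 4 helpers of mitochondrial charging, 1 rose with TGFb (GATC), 1 with STINGX and TGFb against TGFb (QRSL1, 0.25 ± 0.07 SE, adjusted p = 0.0134) and both of these against control. QRSL1 and GATC encode subunits of the amidotransferase that makes glutaminyl-tRNA in mitochondria. Of 6 genes of selenocysteine synthesis and proofreading 1, 2 and 3 rose and none fell in TGFb against control, STINGX with TGFb against TGFb and STINGX with TGFb against control, by edgeR's test at the same threshold. Of 5 cytosolic elongation factors 1 rose and 0 fell with TGFb against control, 1 fell with STINGX and TGFb against TGFb, and 1 rose and 2 fell against control. Of 8 mitochondrial translation factors, 1 rose (GFM1) and 1 fell (MTIF3) with TGFb against control, and 1 rose (MTIF2) and 1 fell (TUFM) with STINGX and TGFb against control. TUFM, the mitochondrial elongation factor Tu, fell with STINGX and TGFb against TGFb (-0.24 ± 0.04 SE, adjusted p = 0.00107) and the others were not called. Of 10 genes of mitochondrial tRNA modification, 1 rose and 0 fell with TGFb against control and 2 rose and 3 fell with STINGX and TGFb against control. With STINGX and TGFb against TGFb 0 rose and 2 fell, TRMU, which thiolates mitochondrial tRNA (-0.49 ± 0.04 SE, adjusted p = 1.67e-06), and HSD17B10, a subunit of mitochondrial RNase P (-0.43 ± 0.09 SE, adjusted p = 0.00277).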

How the data were processed

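Gene expression was measured by stranded RNA-seq of polyadenylated RNA in 12 LX2 libraries, per the labels' protocols, and the submitters' processing notes name cutadapt, HISAT2, StringTie and edgeR with GRCh38, without versions or roles. The authors deposited estimated counts per gene and per transcript as whole numbers, and FPKM values per gene, which are 0.0001 where the count is 0. Whether counting used strand is not given in the sources used here.

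Counts were tested with edgeR 4.0.16 (R 4.3.3): filterByExpr (minimum count 10, minimum total 15), TMM scaling, a robust quasi-likelihood fit of all 12 libraries with 9 residual degrees of freedom, and Benjamini-Hochberg adjusted p under 0.05 over 21328 of 60612 genes. The biological coefficient of variation was 28%. Fits were tested on simulated data. The labels do not say that replicates were separate cultures, so p-values measure the spread between these libraries. Alternatives included DESeq2 1.42.0, limma 3.58.1, other scalings and filters, log2(FPKM + 1), log2(FPKM + 0.1) and leaving out each library.

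The synthetase genes and the other lists were chosen with earlier results of these data known. Per-library values are given for the 6 called genes with the largest change in each comparison, the 3 mitochondrial genes with the largest change, and GARS1, KARS1, WARS1 and EPRS1. No values of synthetase pseudogenes, 14 in the files, exceeded 0.237 CPM. Of the 38 genes, 16 overlap another tested gene, 4 of them on the same strand. Lengths of coding transcripts came from GENCODE 29, matched by gene identifier. Some members enter the counts and class values but are not reported here by name or in the figures.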

Additional observations from a re-analysis of the deposited data

Results flagged for a closer look

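In 5 of 114 groups of 4 libraries, 1 library stood apart from the other 3 by Dixon's criterion, where chance gives about 5% of groups. FARSB had 63.5 CPM in TGFb replicate 2, while the other TGFb libraries had 55.1 to 56.1 CPM. KARS1 had 108.5 CPM in STINGX with TGFb replicate 3, where the others had 119.9 to 121.4 CPM. RARS1 had 92.9 CPM in control replicate 3, where the others had 90.8 to 90.9 CPM. TARS2, the mitochondrial threonyl enzyme, had 33.9 CPM in control replicate 2, where the others had 32.2 to 32.3 CPM. WARS1 had 113.8 CPM in TGFb replicate 4, where the others had 133.6 to 135.8 CPM.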

How the results depend on the processing

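Under 11 other settings and 12 fits that each left out a library, 9 of 13 calls for TGFb against control, 8 of 10 for STINGX with TGFb against TGFb and 15 of 20 for STINGX with TGFb against control held throughout. The cause of the shifts given here was not tested. For TGFb against control, upper quartile scaling gave class medians of 0.086 (cytosolic) and -0.048 (mitochondrial). Library size alone gave 3 cytosolic genes lower, 0 mitochondrial higher and 2 lower, with medians of 0.063 and -0.070. The FPKM tests with pseudocounts 1 and 0.1 gave 2 cytosolic lower, 0 mitochondrial higher and 2 lower, with cytosolic medians of 0.053 and 0.062 and mitochondrial medians of -0.060 and -0.064. No filter on low counts, or only the 2 groups, left 1 mitochondrial gene higher. For STINGX with TGFb against TGFb, library size alone gave 4997 genes higher and 1890 lower, the FPKM tests 4918 and 1907, and 4865 and 1905. All 3 called 9 cytosolic and 9 mitochondrial genes higher, with cytosolic medians of 0.130, 0.123 and 0.128, mitochondrial medians of 0.223, 0.149 and 0.210, and RARS1 at 0.13, 0.12 and 0.13. Fitting only the 2 groups gave 5 cytosolic genes higher. For STINGX with TGFb against control, upper quartile scaling gave medians of 0.119 and -0.0 with 2 mitochondrial genes lower. Library size alone and the FPKM tests gave 1 cytosolic lower, 2 genes of both compartments higher and 0 mitochondrial lower, with cytosolic medians of 0.247, 0.242 and 0.247 and mitochondrial ones of 0.128, 0.104 and 0.126. Dividing by coding length, chosen after seeing the data, gave summed class ratios of 4.41 in STINGX with TGFb, 4.60 in TGFb and 4.15 in control.

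Leaving out 1 library at a time moved some values. For TGFb against control, mitochondrial genes higher ranged from 0 to 2, the cytosolic median from 0.087 to 0.148 and the mitochondrial median from -0.065 to 0.034. For STINGX with TGFb against TGFb, cytosolic genes lower and mitochondrial genes higher each ranged from 3 to 5 and the cytosolic median from -0.020 to 0.031. For STINGX with TGFb against control, cytosolic genes lower ranged from 1 to 2.

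Same-numbered libraries did not deviate together (correlations -0.0383 to 0.0452, 0 of 12 above 0.1), so the numbers were not taken as pairs. With the replicate number as a block, edgeR called 2723 genes higher and 2593 lower for TGFb against control, 2777 and 2870 for STINGX with TGFb against TGFb, and 3617 and 3499 for STINGX with TGFb against control.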
